A study of Populus tremula x Populus alba with 3 samples.

Results

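Of 577 poplar genes that the authors listed as both hypermethylated and changed in expression when the DNA demethylase gene PtaDML10 was knocked down, 67 were listed for CHG methylation of the gene body and for nothing else. CHG is a cytosine followed by A, C or T and then G. The 67 genes were chosen by the authors' methylation and expression calls: they are those of the transcribed region CHG table that stand in neither the CG nor the CHH transcribed region table and in no promoter table. Since measured values selected them, the membership itself is given as a description and without a test. A gene missing from a table was not called there, which does not show that its methylation in that context was the same in the knockdowns and in wild type.

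The plants were hybrids of Populus tremula x Populus alba (INRA clone 717-1B4), a poplar that is easily transformed, as the RNA interference lines KD2 and KD5, both directed against PtaDML10, and as wild type (WT). All 3 genotypes grew for 4 weeks in long days (16 h light, 21 °C) and 12 weeks in short days (8 h light, 19 °C), followed by 4 weeks of short days at 4 °C. Each genotype gave 15 apical buds from 15 plants, still closed at collection, and 1 whole genome bisulfite library, with 3 libraries in all and no replicates. The gene identifiers are those of Populus gene models tagged as a Phytozome release in the tables. No level of bud marker genes or of PtaDML10 was used here, so neither the tissue label nor the knockdown could be checked.

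In plants, CG methylation is copied at replication by a maintenance methyltransferase, while CHG methylation is kept by chromomethylases that are recruited by methylated histone H3 lysine 9. CHG methylation is typical of silenced transposons, and in Arabidopsis a histone demethylase keeps it out of the bodies of active genes, which often carry CG methylation alone. DEMETER-like glycosylases such as DML10 cut out methylated cytosines in any context. In poplar, DML10 is known from the time around bud break.

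The CHG table held 178 gene bodies, and the genes in CHG only were its largest division. Besides the 67 genes (37.6%), 59 were also listed in CG (33.1%), 29 in both CG and CHH (16.3%) and 18 in CHH (10.1%). The other 5 were in no other gene body table but had a promoter entry (2.81%), and they were left out. For comparison, 258 genes were listed for the gene body in CG only and 42 in CHH only.

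For expression, the tables give 1 logFC per gene for both lines together, a mean level as logCPM (the log of a depth-scaled read count) and a false discovery rate (FDR). The base of the logarithm and the direction of logFC are not stated, so genes are described by the sign of the value, not as induced or repressed. The methylation tables for gene bodies hold no methylation difference, no coverage and no position of the methylated region, and no standard error comes with logFC. The authors' values are therefore given without an error, and the precision of a single call cannot be stated. The 3 libraries described above are all bisulfite libraries, so the expression values come from other libraries. The number, replication and tissue of those expression libraries are not known here.

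Most of the 67 genes had a negative logFC. It was negative in 41 genes (61.2%) and positive in 26 (38.8%), and over all 577 listed genes the shares were 51.0% negative and 49.0% positive. The median logFC was -0.73 over the 67 genes, 0.74 over the other 510 listed genes and -0.63 over all 577. No listed gene had a value between -0.62 and 0.73, so the sign of such a median only records which sign was the majority, and the mean of the 67 genes was 0.071. Of the genes in CHH only, 26 of 42 were negative (61.9%), and of those in CG only, 124 of 258 (48.1%). Of the 100 genes listed for CHG together with another gene body context and no promoter, 37 were negative (37.0%). These shares were not tested, since genes of 1 comparison are not replicates.

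The negative genes were more numerous, and the positive ones had the larger values. The 41 negative values lay between -1.90 and -0.63 with a median absolute logFC of 0.84, and the 26 positive ones between 0.80 and 6.72 with a median of 1.34. Positive genes also had the larger median elsewhere. For negative and positive genes it was 0.86 and 1.10 over all listed genes, 0.85 and 1.07 in CG only and 0.92 and 1.11 in CHH only. At a logFC of 1 or more there were 20 genes (29.9%, against 31.4% of all listed genes), and at -1 or less there were 10 (14.9%, against 16.5%). Counting only these 30 genes, positive values were therefore the majority, at 66.7%. The FDR was below 0.005 for 25 of the 67 genes (37.3%, against 31.7% of all listed genes), 16 of them negative. Among the 67 genes, the FDR nearest to the limit of 0.05 was 0.0495 in the authors' deposited table, for an FAD/NAD(P)-binding oxidoreductase gene (Potri.003G005800), and genes beyond the limit were not analysed here.

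**Figure D1:**
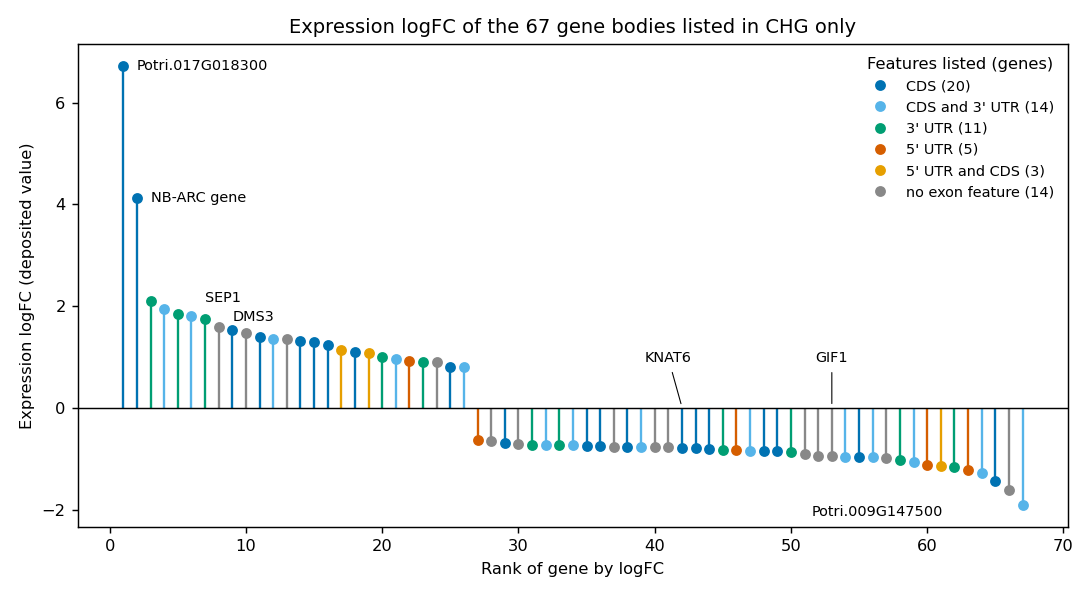
Deposited expression logFC (vertical axis, log scale of unstated base) of the 67 genes against their rank (horizontal axis), coloured by the exon features listed for each gene. Positive values run to 6.72 and form the left 26 genes, and the 41 negative values reach -1.90.

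The sign went with the level of expression. The 20 genes with a logCPM of 6 or more all had a negative logFC, against 128 of 140 such genes over all listed genes. Below the median level of the 67 genes, a logCPM of 4.97, 24 of 33 genes were positive, and above it 2 of 33 were. Over all listed genes, 220 of 319 below that level and 63 of 257 above it were positive. The median logCPM was 3.48 for the positive and 5.97 for the negative genes in CHG only, and 3.96 and 5.76 over all listed genes. The smallest absolute logFC was 1.61 among the 6 genes with a logCPM below 2, and 0.63 among the 20 with a logCPM of 6 or more. Over all listed genes it was 1.61 and 0.62 at these levels. All listed genes had an FDR below 0.05, and whether that limit sets these smallest values was not tested. Whether the sign pattern goes with methylation or with expression level alone was not tested.

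**Figure D2:**
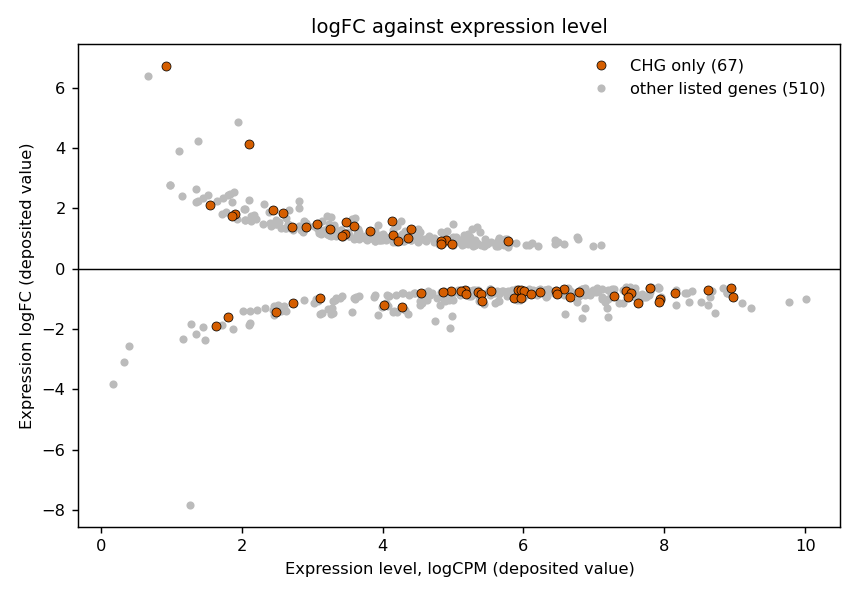
Deposited logFC (vertical axis) against deposited mean level logCPM (horizontal axis) for the 67 genes in CHG only (orange) and the other 510 listed genes (grey), 1 point per gene. Orange points with a logCPM of 6 or more all lie below 0, and the absolute logFC narrows towards high levels in both sets.

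Genes of the ribosome made up the largest function group, and 8 of its 9 members had a negative logFC. The list of ribosome and translation genes held 13.4% of the genes in CHG only and 43 of all 577 listed genes (7.45%), of which 39 were negative. The proteins encoded are structural parts of the small and large ribosomal subunits. A large-subunit L18ae/LX gene (Potri.004G063300) had the most negative logFC of the group in the authors' deposited table, at -1.07 with a logCPM of 5.41 and an FDR of 2.60e-04. The small-subunit S8e gene (Potri.017G110000) followed at -1.02 with a logCPM of 7.93 in the authors' deposited table. An L7Ae/L30e/S12e/Gadd45 gene (Potri.003G181200) and an L13 gene (Potri.002G242600) each had -0.96 in the authors' deposited table. The L13 gene was the most strongly expressed of all 67, with a logCPM of 8.98. An EF1B/ribosomal protein S6 gene (Potri.001G088300) had -0.76 and an S4 gene (Potri.007G056100) -0.68 in the authors' deposited table. The exception was an L28e gene on an unplaced scaffold (Potri.T165500, scaffold_861, 10877 to 14649), with a logFC of 1.59, a logCPM of 4.14 and an FDR of 4.65e-05 in the authors' deposited table. Ribosomal protein genes come in several similar copies, and no source used here says how reads shared between copies were counted.

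The L29 genes of this group are tandem neighbours. Potri.006G214100 (chromosome 6, 22754503 to 22756280) and Potri.006G214200 (22759633 to 22762220) lie 3353 bases apart, the closest pair among the 67 genes. They had logFC values of -0.76 and -0.91 in the authors' deposited table, with a logCPM of 6.24 and 7.29. Neither had an exon feature listed.

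Genes of RNA binding, splicing and processing had both signs. Of 7 list members, 3 were positive and 4 negative, and over all listed genes 23 of 42 were positive. OTP82 (Potri.005G011000), whose Arabidopsis counterpart is a pentatricopeptide repeat protein of chloroplast RNA editing, had 2.11 with a logCPM of 1.55 in the authors' deposited table. The NMD3 gene (Potri.004G085700), an adaptor for nuclear export of the large ribosomal subunit, had 1.32, and a tetratricopeptide repeat gene (Potri.007G028400) 1.01 in the authors' deposited table. The negative ones were RNA recognition motif genes, Potri.008G033000 (-1.12), Potri.001G248100 (-0.84) and Potri.001G377400 (-0.65) in the authors' deposited table, and the polyadenylation factor CPSF30 (Potri.001G357800, -0.75). RSZP21 (Potri.019G050600), an SR-type splicing factor that the word "zinc finger" placed in the transcription factor list, had -0.73, and a KH domain gene (Potri.006G231800) had -0.72 at a logCPM of 8.61 in the authors' deposited table.

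Potri.008G033000 and Potri.010G228700 share 1 best Arabidopsis match and had nearly equal values. Their logFC was -1.12 and -1.14, their logCPM 7.92 and 7.63, and their FDR 6.41e-06 and 4.80e-06 in the authors' deposited table. Both had a 5' UTR listed, but at different places. In Potri.010G228700 (chromosome 10, 21123432 to 21128681) it was the first part of the gene, 21123432 to 21123595, with coding segment 1. In Potri.008G033000 (chromosome 8, 1827360 to 1832328, minus strand) it lay mid-gene, at 1829690 to 1829980, without coding sequence.

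Several other genes in CHG only had a relative among the listed genes. A KNOX homeobox gene, KNAT6 (Potri.012G087100), had -0.78 in the authors' deposited table, and the listed gene with the same Arabidopsis match (Potri.015G079100, in CG only) had -0.996. Class I KNOX genes act in shoot meristems and organ boundaries. The mitochondrial transcription termination factor gene Potri.003G190700 had 1.85, and its counterpart in CG only (Potri.010G022700) 1.56 in the authors' deposited tables. The ARM repeat gene Potri.001G208900 had 1.10, and Potri.011G095700, listed in several contexts, 1.28 in the authors' deposited tables. The S8e gene and Potri.001G262100 in CG only (-1.12), and the RNA recognition motif gene Potri.001G248100 and Potri.003G130300 in the promoter tables (-0.77), also shared a sign in the authors' deposited tables. These pairs were picked after their values were seen, and similar copies can share reads.

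The meristem, flowering and dormancy list held 3 of the 67 genes, 2 of them positive, and 9 of all listed genes, 4 of them positive. KNAT6, described above, was its negative member. DMS3 (Potri.012G016000, chromosome 12, 1520703 to 1527245) had a logFC of 1.75, a logCPM of 1.86 and an FDR of 0.0369 in the authors' deposited table. In Arabidopsis, DMS3 is a hinge-domain protein needed for RNA-directed DNA methylation, and this gene entered the meristem list through the word "meristem" in its name. SEP1 (Potri.008G098400, chromosome 8, 6159271 to 6166192), a MADS-box factor of floral organ identity in Arabidopsis, had 1.81 with a logCPM of 1.91 in the authors' deposited table. The only member of the DNA methylation and chromatin list was an ATP-dependent helicase gene (Potri.012G063500), the longest of the 67 genes at 18777 bases, with 0.81 in the authors' deposited table. That list held 10 of all listed genes, 8 of them positive. Outside the rule for named genes, and chosen after their values were seen, stand ARR12 (Potri.018G111300), a cytokinin response regulator, at 1.31, and GIF1 (Potri.013G043700), a coactivator of leaf cell proliferation, at -0.94 in the authors' deposited table. ROT3 (Potri.007G018400), a cytochrome P450 of brassinosteroid synthesis, had 1.37 in the authors' deposited table, while the word list for hormones held no listed gene.

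The largest logFC values were those of weakly expressed genes. Potri.017G018300 (chromosome 17, 1529685 to 1534071), which has an Arabidopsis match but no description, had the highest logFC of all listed genes, 6.72, and the lowest logCPM of the 67, 0.93, in the authors' deposited table. The disease resistance gene of the NB-ARC type Potri.001G433700 (chromosome 1, 46439427 to 46441835) had 4.13, with a logCPM of 2.11 and the lowest FDR of the 67, 2.78e-06, in the authors' deposited table. NB-ARC proteins are intracellular immune receptors. Its disease resistance list had 3 members in CHG only. A TIR-NBS-LRR gene (Potri.010G231200) had 1.08 and a leucine-rich repeat kinase gene (Potri.004G231500) -1.15 in the authors' deposited table. Over all listed genes 10 of 13 in that list were positive.

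The remaining positive genes named here shared no list. They included, with their logFC in the authors' deposited table, a nucleotide-diphospho-sugar transferase gene (Potri.002G134400, 1.95), a hexapeptide repeat transferase gene (Potri.006G150200, 1.54) and SWEETIE (Potri.004G101300, 1.48), a HEAT repeat gene of sugar metabolism in Arabidopsis. The calcium sensor CBL9 (Potri.001G150200) had 1.40 in the authors' deposited table. A TPX2 family gene (Potri.018G027500), named after its values were seen, had 0.93 at a logCPM of 5.78, the highest level of any positive gene in CHG only, in the authors' deposited table. TPX2 proteins bind spindle microtubules.

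The genes of the cell wall and sugar list and several enzyme genes had a negative logFC. All 4 members of that list were negative, against 8 of 14 over all listed genes. Its words did not find SWEETIE (1.48) or the nucleotide-diphospho-sugar transferase gene (1.95), which were positive in the authors' deposited table. The arabinogalactan proteins, glycoproteins of the cell surface, were AGP14 (Potri.001G004100, -1.22) and AGP30 (Potri.011G053600, -0.83) in the authors' deposited table. XTH32 (Potri.006G122900), which cuts and rejoins xyloglucan chains, had -0.84, and a galactose mutarotase-like gene (Potri.006G037300) -0.74 in the authors' deposited table. KAT2 (Potri.001G051900), a thiolase of peroxisomal fatty acid breakdown, had -0.94, and the plastid ATP/ADP carrier NTT1 (Potri.003G058900) -0.74 in the authors' deposited table. The protein turnover list had 2 members, both negative, against 11 negative of 26 over all listed genes: polyubiquitin UBQ10 (Potri.017G036800) had -0.63 at a logCPM of 8.95 and MAP1D (Potri.005G137400), a methionine aminopeptidase, -0.86 in the authors' deposited table. FKBP15-2 (Potri.002G248200), a prolyl isomerase, had -0.80 at a logCPM of 8.16, and a protein kinase gene with ARM repeats (Potri.013G090500) -0.78 in the authors' deposited table. That gene and Potri.004G231500 were the 2 members of the kinase and phosphatase list, which held 5 negative genes of 17 over all listed genes. In the transcription factor list 2 of 3 members were negative, against 9 of 27 over all listed genes, and both of these encode RNA-binding proteins matched by "zinc finger". The homeobox gene KNAT6 (-0.78) and the response regulator ARR12 (1.31 in the authors' deposited table) were not in that list. Its counts therefore do not describe transcription factors as a group. Of the 10 plastid and photosynthesis genes, 12 vesicle and cytoskeleton genes and 5 DNA replication and repair genes that the words of these lists found among all listed genes, none was in CHG only. Genes in CHG only were 67 of all 577 listed genes. The words did not find NTT1, OTP82 or the TPX2 family gene, so these lists do not show that such functions are absent.

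The 2 most negative genes were weakly expressed. Potri.009G147500 had -1.90 and Potri.003G165300 -1.61 in the authors' deposited table, with a logCPM of 1.64 and 1.80. IQD13 (Potri.019G112400), of the calmodulin-binding IQ-domain family, had -1.43 at a logCPM of 2.48, and a cAMP-regulated phosphoprotein 19-related gene (Potri.010G141300) -1.28 at 4.27 in the authors' deposited table.

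**Figure D3:**
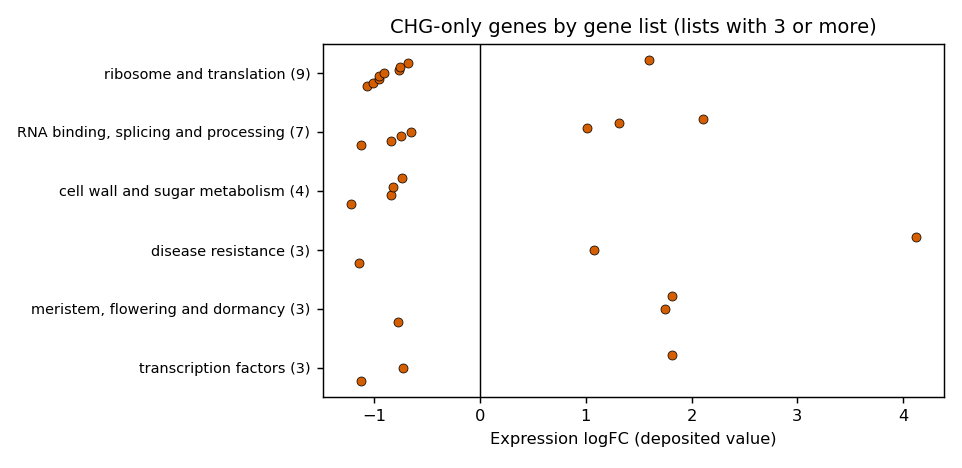
Deposited logFC (horizontal axis) of the genes in CHG only, for each gene list with 3 or more of them (rows), 1 point per gene with small vertical offsets. In the ribosome row 8 of 9 points lie below 0 and in the cell wall row all 4 do, while the other rows have points on both sides.

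Coding sequence was the feature listed most often, and UTRs were listed for nearly as many genes. The features beside a gene were read as those that a methylated region overlaps. Coding sequence was listed for 37 of 67 genes (55.2%), a 3' UTR for 25 (37.3%), a 5' UTR for 8 (11.9%) and no exon feature for 14 (20.9%). A UTR of either kind was listed for 33 genes (49.3%). Among the 258 genes in CG only, the shares were 71.7% for coding sequence, 29.5% for the 3' UTR, 16.3% for the 5' UTR and 14.3% for no exon feature. Among the 42 genes in CHH only they were 54.8%, 45.2%, 4.76% and 21.4% in the same order. The CHG entries of the 100 genes in several contexts gave 67, 26, 13 and 20 genes. Feature lengths were not taken into account, so a share shows no preference, and the differences were not tested.

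**Figure D4:**
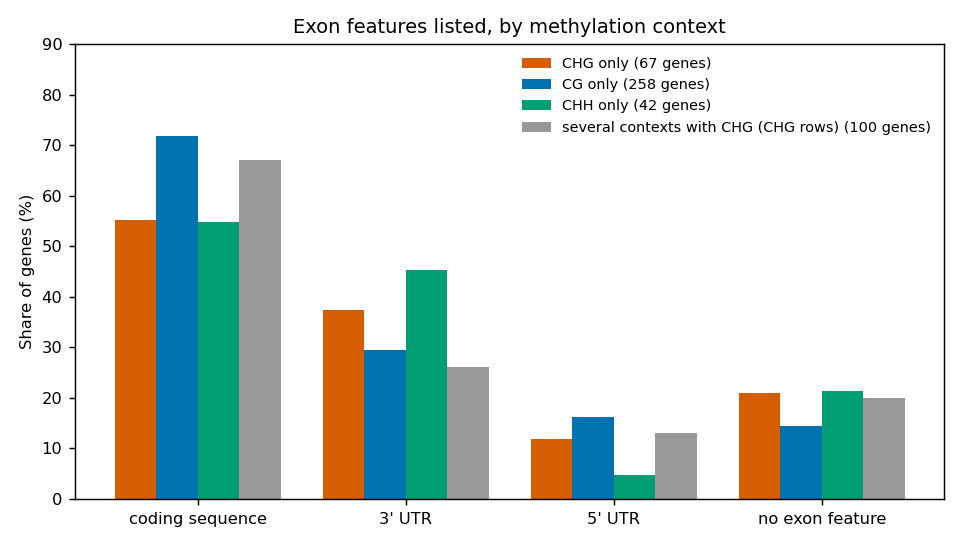
Share of genes (vertical axis, %) with coding sequence, a 3' UTR, a 5' UTR or no exon feature listed, for genes in CHG only, in CG only, in CHH only and for the CHG entries of genes in several contexts. Coding sequence reaches 55.2% of the genes in CHG only and 71.7% of those in CG only.

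The combination of features split the 67 genes into 6 classes. Coding sequence alone was listed for 20 genes, coding sequence with a 3' UTR for 14, a 3' UTR alone for 11, a 5' UTR alone for 5 and a 5' UTR with coding sequence for 3. A negative logFC was most frequent where no exon feature was listed, in 10 of 14 genes, and where the 5' UTR stood alone, in 4 of 5. It was found in 11 of 20 genes with coding sequence alone and 9 of 14 with coding sequence and 3' UTR. With a 3' UTR alone it was found in 6 of 11, and with a 5' UTR and coding sequence in 1 of 3. Of all 8 genes with a 5' UTR listed, 5 were negative (62.5%), near the 61.2% of the 67 genes. Such sign counts were not made for the other listed genes. The genes with a 5' UTR alone were also well expressed, with a median logCPM of 7.52, against 4.97 for all 67. The class with coding sequence alone held both of the largest values, Potri.017G018300 and Potri.001G433700. With so few genes in a class, these counts are a description.

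For 14 genes no coding segment or UTR was listed, and the tables do not place the methylated region within the gene. They include both L29 genes, the L28e gene, CPSF30, KAT2, GIF1 and SWEETIE. Their median span was 4489 bases, against 4055 for the 64 genes with 1 gene per entry. CPSF30 spans 16615 bases and SWEETIE 11695 bases, whereas the L29 gene Potri.006G214100 spans 1778 bases.

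Listed coding segment numbers were mostly single or adjacent, and the midpoint of the listed coding sequence was least often near the 5' end. Coding segments of the gene itself were listed for 34 genes, with 1 segment number in 20, 2 in 11 and 3 in 3. Of the 14 genes with more than 1, the numbers were adjacent in 13. Numbers were pooled over the gene models of a gene, so 1 exon numbered differently between models can count as several. Potri.001G208900, with 5 gene models, had numbers 13, 16 and 17 within 141 bases. The counts are therefore of numbers, not of separate exons. Segment 1 was listed for 5 of the 34. Measured from the 5' end, the midpoint of the listed coding sequence fell at a median of 64.8% of the gene span, with 7 genes in the first part of the gene when it is cut in 3 equal parts, 13 in the middle and 14 in the last. The median was 53.4% for 174 genes in CG only, 74.2% for 23 in CHH only and 51.2% for 66 CHG entries of genes in several contexts. The position of the methylated region within a segment is unknown, and a long segment pulls the midpoint towards the middle. Where all the coding sequence of these genes lies was not taken into account, so the medians show no preference.

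**Figure D5:**
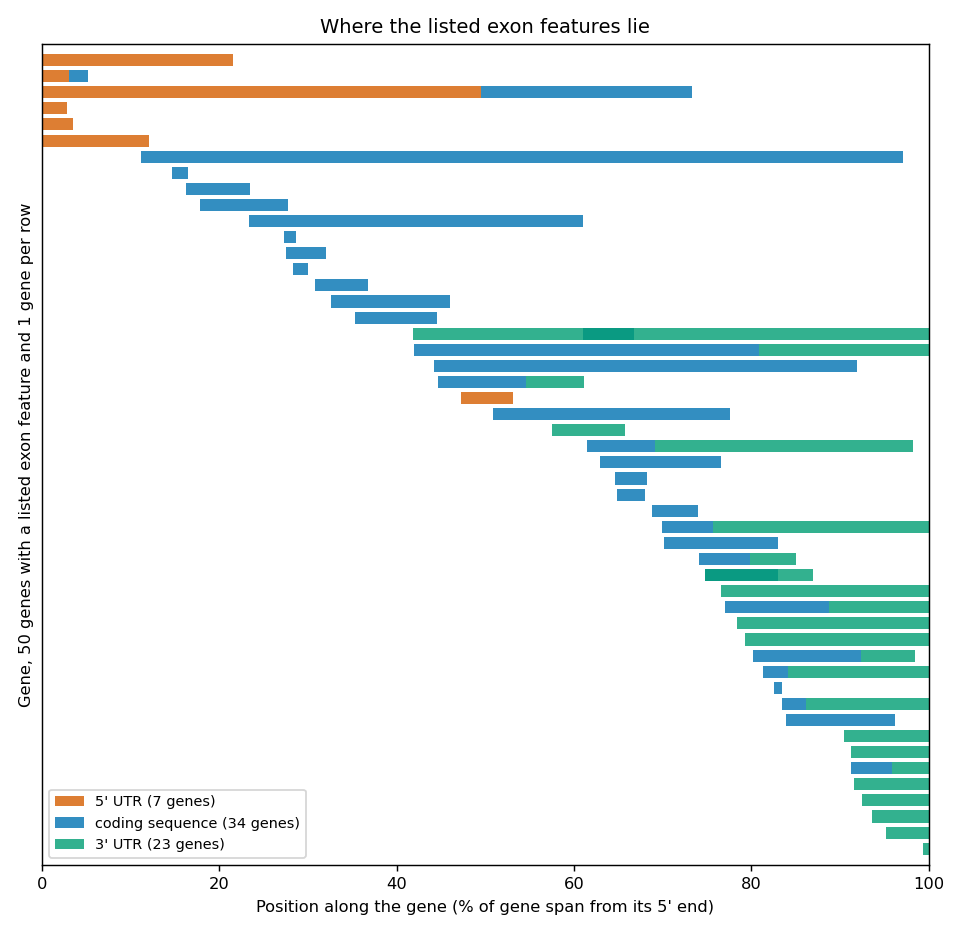
Position of the listed exon features along each gene (horizontal axis, % of the gene span from its 5' end) for the 50 genes with such a feature and 1 gene per entry, in order of position. A bar runs from the first to the last base of the listed parts, introns between them included. 5' UTRs are listed for 7, coding sequence for 34 and 3' UTRs for 23 of these genes.

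Single genes show how far a region can be placed. In Potri.001G433700 the only coding segment listed, segment 1, runs from 46439498 to 46441564 on chromosome 1 and takes up most of the gene. Potri.017G018300 had coding segment 4 listed, 1530710 to 1532360 on chromosome 17. In SEP1, which has 2 gene models, coding segment numbers 7 and 8 and a 3' UTR were listed, at the end of the gene. These numbers may be 1 exon numbered differently in the 2 models. In DMS3 a 3' UTR alone was listed. KNAT6 had coding segments 2 and 3 listed, and CBL9 only segment 2, of 83 bases.

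In 3 genes the entry also held an overlapping gene, and the listed features belonged in part to that neighbour. For Potri.018G066700 (1.14 in the authors' deposited table) the coding sequence and 5' UTR are those of Potri.018G066800, a gene nested within it. For Potri.013G039500 (0.96 in the authors' deposited table) the coding sequence and 3' UTR are those of Potri.013G039600 on the other strand. For Potri.002G010100 (-0.84 in the authors' deposited table) a 3' UTR of its own was listed beside features of Potri.002G010200. Counting only features of the gene itself, coding sequence was listed for 50.7%, a 3' UTR for 35.8%, a 5' UTR for 10.4% and no exon feature for 23.9% of the 67 genes.

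The genes were spread over the genome. Chromosome 1 held 11, chromosome 6 held 8 and chromosome 3 held 7, and 1 was on a scaffold. After the L29 pair, the next closest members were KNAT6 and Potri.012G087400 on chromosome 12, 24453 bases apart, and they had opposite signs, -0.78 and 1.25 in the authors' deposited table. All other neighbouring members on a chromosome, among the 64 genes with 1 gene per entry, were at least 156938 bases apart. Gene spans ran from 1241 bases (AGP14) to 18777 bases. The median span was 4055 bases, against 4150 bases for genes in CG only, 3299 for genes in CHH only and 5716 for CHG genes in several contexts. Positive genes had a median of 4487 bases and negative genes 3230 bases. The order was the same in the other groups, at 4733 and 3748 bases in CG only and 3823 and 3204 in CHH only. For CHG genes in several contexts it was 7385 and 4315 bases.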

How the data were processed

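Genomic DNA of apical buds was bisulfite sequenced (Illumina HiSeq, per the labels' protocols), and Bismark and methylKit are named in the submitters' processing notes. No source used here gives versions, thresholds, build or depth. The 6 deposited tables hold the authors' own comparison of KD2 and KD5 with WT, and no value per sample. The logFC and logCPM deposited by the authors were taken as log values of unstated base (recorded as log2 for the unit check alone) and never turned into folds, and the p-value and FDR columns, per the file headers, belong to expression. Promoter methylation differences are a deposited score in percentage points, and all are negative in tables titled hypermethylated, so the sign was turned.

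Here, genes were sorted into classes by table, and counts, medians and shares were computed (Python 3.11.15, pandas 2.3.3). No test was run: each genotype is 1 bisulfite library, the tables hold no expression value per sample, and genes are not replicates. Exact Clopper-Pearson 95% intervals for shares, and exact intervals for medians, were used only to judge the alternatives. The class rule was run on simulated tables, which checks the code of the rule alone and not the matching of gene names in the deposited data. The members, gene lists and alternatives were chosen with earlier results of these data known. A gene joined any of 16 lists by words or symbols of its annotation, 12 lists held a member, and 34 members were in none. The 4 without a member were hormones, plastid and photosynthesis, vesicle traffic and cytoskeleton, and DNA replication and repair. The transport and the lipid list held 1 member each (NTT1, KAT2), as did the transposon list (Potri.008G033000, through "retrovirus" in its description). Genes named were, per direction, the 12 largest absolute logFC, the 5 highest and lowest logCPM, up to 4 per list, all of the chromatin list, genes with UTR and coding sequence and an absolute logFC of at least 1, and the 3 longest and shortest. A further coordinate block of unstated meaning in the transcribed region tables was not used.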

Additional observations from a re-analysis of the deposited data

How the results depend on the processing

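Of 26 alternatives, 22 left a value within its interval or a count within 1.5 times. The intervals treat genes as independent draws, and the alternatives reuse the same genes. A value within its interval therefore does not show that a result is robust. With promoter tables ignored there were 72 genes in place of 67, and 76 when tables were matched by gene model. With an absolute logFC of at least 1, positive genes were 66.7% in place of 38.8%, since that limit keeps 20 positive and 10 negative genes. The mean logFC was 0.071 in place of the median of -0.73, a change of sign, and the mean absolute logFC was 1.20 in place of 0.96; the largest positive values carry the means. By symbols alone, 1 gene list held a member in place of 12, since most lists have no symbols. Assigning features to the gene itself was chosen after seeing the data. No paired analysis was possible because each genotype has 1 bisulfite library and the tables hold no value per sample. Depth is unknown, and the tables hold only genes past the authors' thresholds.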

Other observations

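The 5 genes listed for the gene body in CHG only but also for the promoter come with methylation differences, which the gene body tables lack. The promoter differences are negative as deposited, and their sign was turned here, so a gain rests on the title hypermethylated. For 4 of the 5 genes the authors' deposited tables hold a CHG promoter gain in this sense. ASP1 (Potri.016G133000), an aspartate aminotransferase, gained 18.0 points in line KD2 and 25.6 in KD5 there, and its logFC in the authors' deposited tables was 1.48. Potri.001G319300, at a logFC of -1.79, gained 19.1 points in line KD2 and 18.2 in KD5 per the authors' deposited tables. For a SERF family gene (Potri.014G018100, logFC -0.73) the authors' deposited tables show 30.0 points in line KD2 and 15.1 in KD5. The HRF1 family membrane protein gene Potri.007G129900 (logFC 0.91) gained 20.2 points in line KD2 and 17.03 in KD5 by CHG, and by CHH 23.2 in line KD2 and 15.1 in KD5, per the authors' deposited tables. Potri.013G118000 (logFC 0.84) has a CG promoter gain in the authors' deposited tables, 22.6 points in line KD2 and 29.5 in KD5.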
